A study of Mus musculus with 3 samples.

Results

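The 41 DNA replication genes described here were chosen by symbol for their role, and all 41 were found among the 20471 genes of the deposited count table. By role they fall into 10 licensing genes, 5 origin firing genes, 14 replication fork genes, 5 nucleotide supply genes, 4 chromatin genes and 3 regulators.

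DNA replication starts from licensed origins. The origin recognition complex (Orc1, Orc6), Cdc6 and Cdt1 load the MCM helicase subunits (Mcm2 to Mcm7) in G1 phase, and Mcm10, Cdc45 and the GINS subunits turn the loaded helicase into an active one at the start of S phase. At the fork, DNA polymerases (Pola1, Pola2, Pold1, Pole) and primase (Prim1) copy DNA with the sliding clamp Pcna, the clamp loader (Rfc genes), the single-strand binding proteins Rpa1 and Rpa2, the flap nuclease Fen1 and the ligase Lig1. Many of these genes are targets of E2F transcription factors, which retinoblastoma proteins restrain until cyclin-dependent kinases, activated by growth factor signalling, release them in late G1.

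Expression was measured by DRUG-seq2, in which the RNA of each well receives its own barcode during reverse transcription, so that a whole plate can be pooled and sequenced as 1 library. The cells were wild-type (WT) mouse embryonic fibroblasts, kept for 4 days in a medium named CFAE+8 with 1 compound of a kinase inhibitor library in each screening well. The 3 deposited samples are 3 such plates. Plates 1, 2 and 3 held 87, 84 and 40 tested compounds, most of them in 1 well. On plate 3 further wells carried the name of a medium: 5 wells of bC8FAE (taken from its name as the screening medium with no compound), 4 of bCSFAE, 4 of bCLFAE, 4 of bC6FAE[10], 3 of bC6FAE[2], 3 of bCFAE and 3 of basal. Another 4 wells were named MEF, which is also the name of the cells in the sample titles. What these 4 wells were kept in is not stated, and they are counted below with the medium wells. What the media held, the doses of the compounds and the strain or number of embryos are not stated in the labels or the table. Where nothing says that wells came from separate cultures, the p-values measure only the spread between wells, which may be technical.

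The medium wells had total counts of 119295 to 726228, and the median compound well had 318876.5 on plate 1, 611204 on plate 2 and 438680 on plate 3. The wells bC8FAE 4 (119295) and MEF 3 (138747) were the shallowest medium wells. All 12 fibroblast markers examined were detected in every medium. Their summed level was 9340 to 11660 CPM (counts scaled to a common well total) in MEF wells and 5768 to 8991 CPM in the wells of the other media. A well's RNA cannot tell fewer cycling cells from less RNA of these genes per cell.

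Because many replication genes carry E2F sites close to their start, the bases before the start were searched for the 8-letter E2F words TTTCCCGC, TTTGGCGC, TTTCGCGC and TTTGCCGC on both strands, in RefSeq promoters on mm10. Of 34 replication genes with a promoter entry, 8 held such a word in the 250 bases before a start, which is 23.5%, against 583 of 27025 genes of the promoter table (2.16%). The 8 were Cdc6, Mcm5, Mcm6, Mcm7, Orc1, Pola1, Rfc3 and Uhrf1. The helicase subunits Mcm5 and Mcm6, to which the results below return, are shown with Cdt1, whose window held no such word. Each line gives the 200 bases before the start from 5′ to 3′ on the gene's strand, and capitals mark the words, which in Mcm5 begin at -153 and -149 and in Mcm6 at -110, -106 and -47 from the start. The capitals hold overlapping words on opposite strands, a pair in each gene, and a match is a description of the letters only.
Mcm5 (chr8:75109309-75109508, plus strand): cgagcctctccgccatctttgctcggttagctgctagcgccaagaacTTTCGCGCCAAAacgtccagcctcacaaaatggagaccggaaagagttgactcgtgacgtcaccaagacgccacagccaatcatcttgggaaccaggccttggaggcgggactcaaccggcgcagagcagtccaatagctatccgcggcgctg
Mcm6 (chr1:128359706-128359905, minus strand): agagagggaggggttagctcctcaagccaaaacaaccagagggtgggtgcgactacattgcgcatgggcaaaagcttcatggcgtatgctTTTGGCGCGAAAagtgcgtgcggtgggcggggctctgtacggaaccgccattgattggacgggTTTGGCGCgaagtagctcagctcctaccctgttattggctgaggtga
Cdt1 (chr8:122567815-122568014, plus strand): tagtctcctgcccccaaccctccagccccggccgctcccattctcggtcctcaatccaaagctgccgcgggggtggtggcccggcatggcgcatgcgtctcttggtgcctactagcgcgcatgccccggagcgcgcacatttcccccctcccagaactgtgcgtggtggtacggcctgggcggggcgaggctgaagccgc

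The mean level over the replication genes was lower in basal and MEF wells than in the other 6 media, though not every gene followed. Of the 32 genes tested, 23 had a positive and 9 a negative log2 fold change in bCFAE over basal, and 26 a positive and 6 a negative one in bC8FAE over MEF. The mean of log2(CPM + 1) over these 32 genes had a median of 5.82 in bC8FAE, 5.87 in bCSFAE, 5.80 in bCLFAE, 5.73 in bC6FAE[10], 5.66 in bC6FAE[2] and 5.76 in bCFAE. It was 5.26 in basal and 5.26 in MEF. The highest single basal or MEF well stood at 5.42 and the lowest well of any other medium at 5.53, so the ranges did not overlap. The summed level of all 41 genes was 2060 to 2926 CPM in the wells of those 6 media and 1607 to 1953 CPM in basal and MEF wells. Of 5 marker lists of other cell types, the macrophage and the neural list moved with this order. The sum of 7 macrophage markers was 34.8 to 92.0 CPM in the 6 media and 141 to 368 CPM in basal and MEF wells, with Ptprc at 0 in every medium. The sum of 5 neural markers was 220.0 to 431 CPM in the 6 media and 72.9 to 98.4 CPM in basal and MEF wells. The sums of the other lists overlapped. In the 6 media the endothelial sum was 0 to 17.0 CPM, the epithelial sum 19.8 to 147 CPM and the skeletal muscle sum 10.8 to 83.0 CPM, and in basal and MEF wells the endothelial sum was 0 to 11.4 CPM, the epithelial sum 21.6 to 78.9 CPM and the skeletal muscle sum 9.51 to 47.9 CPM. The part of these genes in the results was not tested.

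The medium comparisons were fitted together on 6985 genes, of which 32 were replication genes. The other 9 were too low for the filter. Cdc6, which loads the helicase, had a median of 3.12 CPM over the 30 medium wells and was at 0 in 8 of them. Orc1 was at 0 in 13 wells, and the cyclin Ccne2 was at 0 in 3 wells with a median count of 2. Orc6, Mcm10, Gins1, Prim1, Fen1 and Slbp had median counts of 3.5 to 6 per well. Differences between media were not tested in this fit for these 9 genes.

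The first question was how the screening medium bC8FAE stood against the wells named MEF. A gene was called where edgeR's quasi-likelihood test gave an adjusted p below 0.05. By that rule 8 replication genes rose (15.2% of all genes tested rose) and 1 fell (16.9% of all genes fell), with a median log2 fold change of 0.34 over the 32 genes and 0.01 over all genes. Cdt1, the licensing factor that brings the helicase to origins, had 57.3, 69.5, 43.0, 92.2 and 40.9 CPM in bC8FAE, against 11.2, 5.68, 36.0 and 14.3 CPM in MEF. Every bC8FAE well was above every MEF well, and Cdt1 rose by a log2 fold change of 2.01 ± 0.33 (SE; edgeR adjusted p = 1.09e-06). E2f1, an activator of replication genes, had 196, 124, 149, 176 and 169 CPM in bC8FAE, against 62.6, 73.9, 36.0 and 61.0 CPM in MEF. Its groups were also apart, at 1.31 ± 0.19 (adjusted p = 1.11e-07).

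The helicase subunit Mcm6 had 136, 111, 101, 126 and 94.7 CPM in bC8FAE, against 53.7, 54.0, 28.8 and 64.6 CPM in MEF. No MEF well reached the lowest bC8FAE well, and Mcm6 rose by 1.02 ± 0.19 (edgeR adjusted p = 2.49e-05). Mcm5, of the same helicase, had 128, 128, 101, 201 and 97.2 CPM in bC8FAE, against 85.0, 73.9, 57.7 and 71.7 CPM in MEF, and rose by 0.63 ± 0.18 (adjusted p = 0.00527). Chaf1b, a subunit of the histone chaperone that places new nucleosomes behind the fork, had 75.1, 67.3, 81.0, 67.1 and 53.7 CPM in bC8FAE, against 29.1, 17.1, 21.6 and 46.6 CPM in MEF. It rose by 1.202 ± 0.253 (adjusted p = 0.000115), again with no overlap between the groups.

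In the nucleotide supply, the dUTPase gene Dut had 237, 230.2, 179.6, 319 and 233 CPM in bC8FAE, against 145.4, 108, 137 and 111 CPM in MEF, and rose by 0.81 ± 0.14 (edgeR adjusted p = 7.2e-06) with no overlap. The ribonucleotide reductase subunit gene Rrm2 (0.47 ± 0.17) and the clamp loader gene Rfc5 (0.70 ± 0.24) rose with overlapping groups. The 1 gene that fell was Gins4, which encodes a GINS subunit. It had 21.7, 13.0, 32.9, 0 and 15.3 CPM in bC8FAE, against 44.7, 37.0, 28.8 and 21.5 CPM in MEF, at -0.92 ± 0.35 (adjusted p = 0.0379). These 3 calls rested on single wells. Gins4 was not called without MEF 1, MEF 2, bC8FAE 2, bC8FAE 4 or bC8FAE 5 (edgeR adjusted p = 0.0602 to 0.242), with no filter (0.0708), with DESeq2 (0.0504) or with the well number as a block (0.0696). Rfc5 was not called without MEF 1, MEF 3 or bC8FAE 5 (0.0503 to 0.184), with all wells of plate 3 in the fit (0.133) or with the block (0.0725), nor Rrm2 without MEF 1, MEF 3, MEF 4, bC8FAE 1, bC8FAE 3 or bC8FAE 4 (0.0526 to 0.208), with DESeq2 (0.0518) or with all wells of plate 3 in the fit (0.273).

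A second question was how bCFAE stood against basal. Here 10 replication genes rose (16.3% of all genes tested rose) and 0 fell (18.2% of all genes fell). The median log2 fold change of the 32 genes was 0.29, against 0.0028 over all genes. Licensing genes held 5 of the 10: of 7 tested, 5 rose and all 7 had a positive fold change. Mcm2 had 122, 90.9 and 107 CPM in bCFAE, against 47.9, 32.3 and 34.9 CPM in basal wells. Its groups were well apart, at 1.32 ± 0.28 (edgeR adjusted p = 0.000143). Cdt1 had 49.6, 66.1 and 58.2 CPM in bCFAE, against 16.9, 17.6 and 34.9 CPM in basal wells (1.204 ± 0.308, adjusted p = 0.00141). Mcm3, another helicase subunit, had 42.1, 62.0 and 67.5 CPM in bCFAE, against 19.7, 20.6 and 28.5 CPM in basal wells (1.16 ± 0.32, adjusted p = 0.00294).

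E2f1 had 143, 162 and 151 CPM in bCFAE, against 47.9, 79.3 and 57.1 CPM in basal wells, and rose by 1.17 ± 0.21 (edgeR adjusted p = 1.15e-05). Uhrf1, which guides maintenance methylation to newly copied DNA, had 19.6, 23.4 and 32.6 CPM in bCFAE, against 8.46, 2.94 and 12.7 CPM in basal wells (1.45 ± 0.51, adjusted p = 0.0228). The clamp gene Pcna had 61.7, 45.4 and 34.9 CPM in bCFAE, against 11.3, 26.4 and 31.7 CPM in basal wells (0.95 ± 0.32, adjusted p = 0.0167). In each of the 10 called genes every bCFAE well was above every basal well. The others were Rrm2 (0.86 ± 0.19), the single-strand binding gene Rpa1 (0.81 ± 0.24), Mcm6 (0.76 ± 0.22) and Mcm5 (0.73 ± 0.21). Uhrf1 was not called without basal 1, basal 2 or bCFAE 3 (edgeR adjusted p = 0.0576, 0.148 and 0.0675). Nor was Pcna without basal 1 or bCFAE 1 (0.177 and 0.118), or Mcm5 without basal 3 (0.0705). With all wells of plate 3 in the fit, Uhrf1 (0.0625), Pcna (0.0928), Rrm2 (0.064) and Mcm6 (0.133) were not called.

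**Figure D1:**
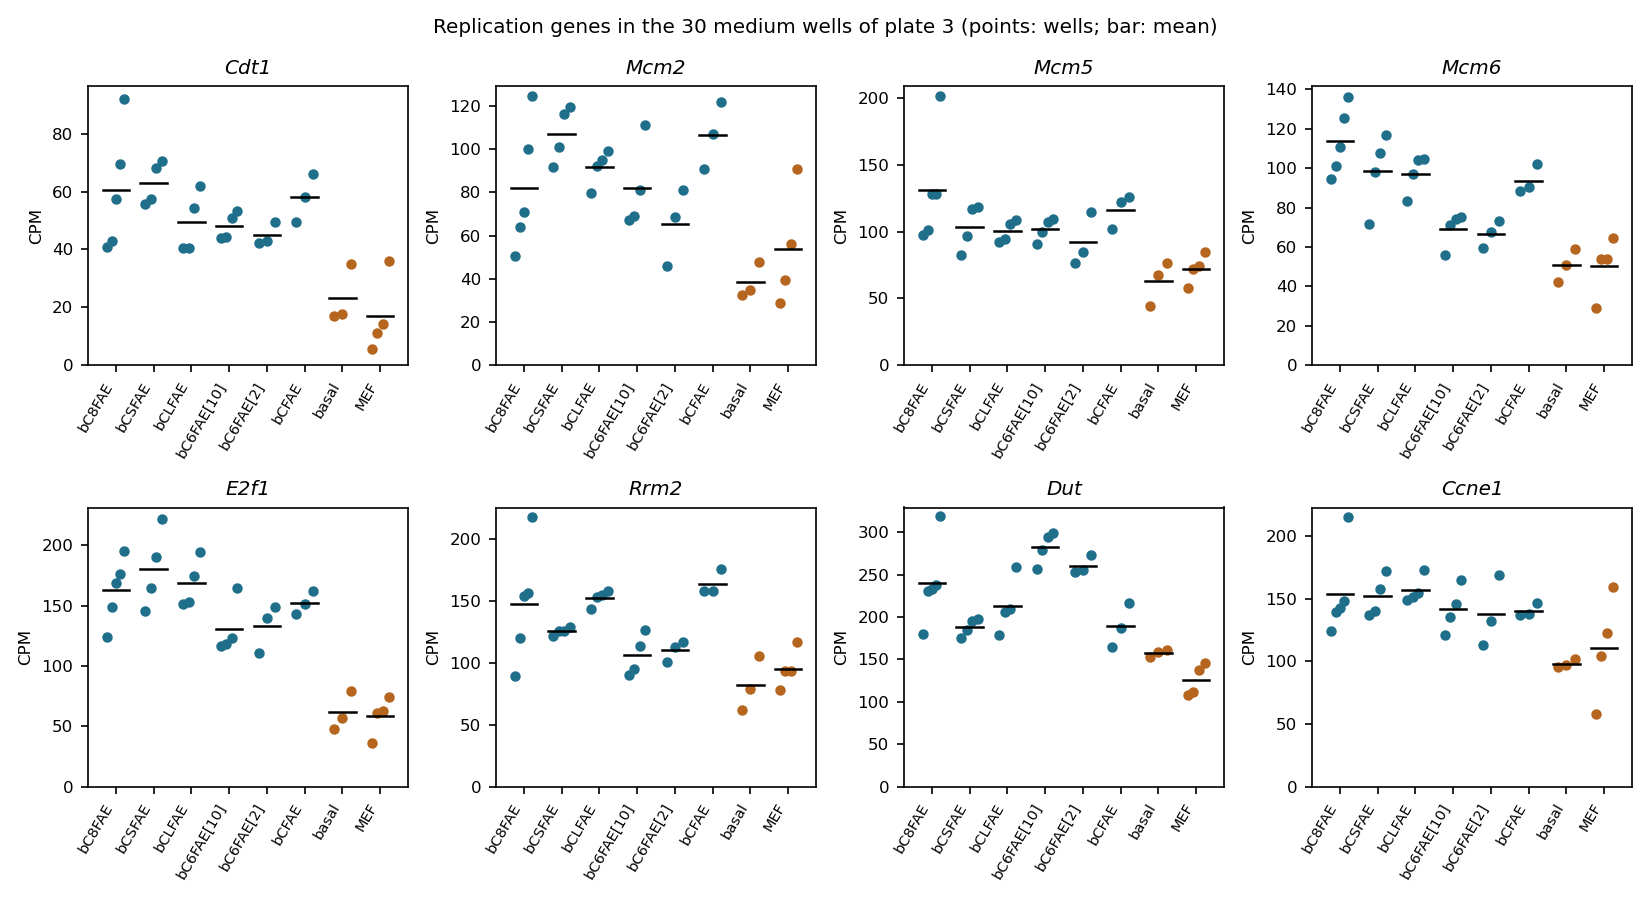
Level in CPM (y axis, from 0) of 8 replication genes in the 30 medium wells of plate 3. Each point is a well, placed by value within its medium, each bar is the mean of a medium, and basal and MEF wells are brown. Cdt1 and E2f1 are low in both brown groups (at most 36.0 and 79.3 CPM), below every well of the other media (at least 40.4 and 111 CPM).

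These comparisons share no wells, and Cdt1, E2f1, Mcm5, Mcm6 and Rrm2 were called higher in both: 5 genes, which are 50% of the replication genes that rose in bCFAE over basal and 62.5% of those that rose in bC8FAE over MEF. Over all genes, 636 rose in both, which are 55.7% and 59.9% of the genes that rose in those comparisons. With all wells of plate 3 in the fit, Rrm2 was called in neither comparison and Mcm6 was not called in bCFAE over basal. Of 20 other replication pathway genes tested, such as cofactors of origin firing and fork protection, 1 rose and 1 fell in bC8FAE over MEF, and 1 rose in bCFAE over basal. Of 20 mitosis (G2/M) genes, 1 rose and 2 fell in bC8FAE over MEF (median log2 fold change -0.32), and 0 rose and 4 fell in bCFAE over basal (median 0.06).

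Replication genes differed little between basal and MEF wells. No gene of the 32 was called by edgeR (0.687% of all genes tested were called) or by DESeq2, and 2 passed an unadjusted p of 0.05 (664 of all 6985 genes did). Mcm2 had 47.9, 32.3 and 34.9 CPM in basal wells, against 55.9, 91.0, 28.8 and 39.5 CPM in MEF wells, and these groups overlapped.

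In bC8FAE over bCFAE no replication gene was called by edgeR or DESeq2 (11.1% of all genes tested were called), and 3 passed an unadjusted p of 0.05 (1616 of all 6985 genes did). In bCLFAE over bCFAE and in bCSFAE over bCFAE, no replication gene was called by edgeR or DESeq2 either (6.5% and 6.1% of all genes). There 1 and 3 passed an unadjusted p of 0.05, beside 1207 and 1230 of all 6985 genes. All comparisons that involve bCFAE use the same 3 wells of it and are not independent.

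In bC6FAE[10] over bCFAE, 2 of 32 replication genes rose (7.59% of all genes rose) and 1 fell (6.06% of all genes fell), shares no higher than those of all genes. Dut had 256, 299, 295 and 279 CPM in bC6FAE[10], against 164, 187 and 216 CPM in bCFAE, and rose by 0.64 ± 0.13 (edgeR adjusted p = 0.000159) with no overlap. Rrm2 had 90.5, 127, 114 and 95.2 CPM in bC6FAE[10], against 158, 176 and 158 CPM in bCFAE. It fell by 0.58 on the log2 scale (SE 0.15, adjusted p = 0.00467), also with no overlap, while Rpa2 rose by 0.84 ± 0.28 (adjusted p = 0.0333) and was not called without bCFAE 2, bCFAE 3 or any of bC6FAE[10] 2, 3 and 4 (0.0506 to 0.162), nor with no filter (0.0617), DESeq2 (0.06), all wells of plate 3 in the fit (0.209) or the well number as a block (0.0526).

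In bC6FAE[2] over bCFAE, 3 replication genes rose (5.03% of all genes rose) and 1 fell (3.55% of all genes fell). Dut had 256, 253 and 273 CPM in bC6FAE[2], against the same bCFAE wells (0.56 ± 0.14, edgeR adjusted p = 0.00498). Rrm2 had 101, 113 and 117 CPM in bC6FAE[2] (-0.50 ± 0.17, adjusted p = 0.048). Pola2, a subunit of the primer-making polymerase, had 19.8, 33.3 and 30.7 CPM in bC6FAE[2], against 9.03, 17.9 and 6.98 CPM in bCFAE (1.25 ± 0.38, adjusted p = 0.0285). Rpa2 rose by 0.93 ± 0.30 (adjusted p = 0.0425). The groups of each of the 4 genes did not overlap, but 0 genes were called without bCFAE 1, 1 without bCFAE 3, bC6FAE[2] 2 or bC6FAE[2] 3, and 2 without bCFAE 2.

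Against bC6FAE[2], bC6FAE[10] had 0 replication genes called by edgeR or DESeq2 (0.415% of all genes), and 1 past an unadjusted p of 0.05 (544 of all 6985 genes). In bC8FAE over bC6FAE[10], 2 replication genes rose (3.52% of all genes rose) and 0 fell (5.54% of all genes fell). Mcm6 rose by 0.69 ± 0.16 (edgeR adjusted p = 0.00288), with bC6FAE[10] wells at 75.4, 71.0, 55.7 and 74.3 CPM, all below the bC8FAE wells given above. Rfc2 had 164, 156, 132, 159 and 115.12 CPM in bC8FAE, against 102, 97.9, 121 and 69.7 CPM in bC6FAE[10] (0.55 ± 0.15, adjusted p = 0.0128), with overlap. Rfc2 was not called without bC8FAE 1 (adjusted p = 0.0642), bC8FAE 2 (0.0525) or bC6FAE[10] 4 (0.0948).

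**Figure D2:**
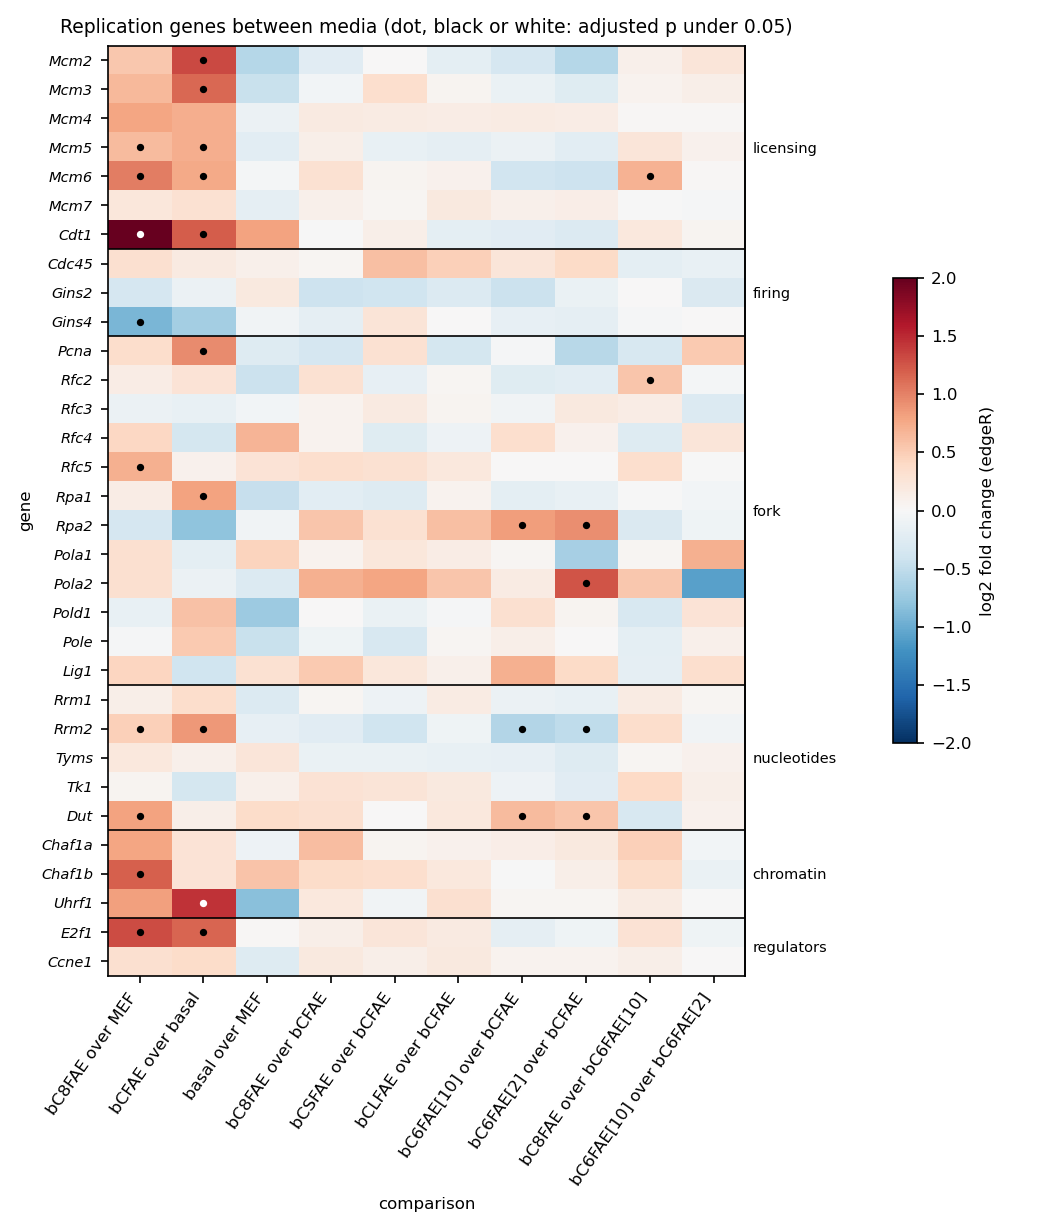
Log2 fold change from edgeR (colour, red higher and blue lower in the first-named medium) of the 32 tested replication genes, in rows grouped by role, for 10 comparisons between media, in columns. Dots mark an adjusted p under 0.05; they lie mostly in the first and second columns, with 9 in bC8FAE over MEF and 10 in bCFAE over basal.

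In the screen, each compound was compared with all other screening wells of its plate, since no well was named as vehicle. On plate 3 those other wells include the 5 bC8FAE wells. Compounds of 1 plate share those wells, and a compound with 1 well has no replicate of its own: its test sets 1 well against the spread of the plate. Of 211 compounds, 8 had at least 2 replication genes called lower and 1 had at least 2 called higher. Pooled over all compounds, 1.35% of the replication gene tests were called lower, against 0.276% over all genes. Called higher were 0.123%, against 0.365% over all genes. The mean log2(CPM + 1) of the 32 replication genes of the medium fit, minus the plate median, was lowest in the Trametinib well (-1.73). It was -1.60 with LDC4297, -1.54 with NT157, -1.24 with FIIN_2 and -0.99 with Erdafitinib. The wells of PF_04979064 (-1.08) and APTO_253 (-1.07) were also low, but had 0 replication genes called by edgeR, with 5 and 15 lower past an unadjusted p of 0.05 and 4 and 0 called lower by limma. The highest value was 0.62 with CHR_6494.

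**Figure D3:**
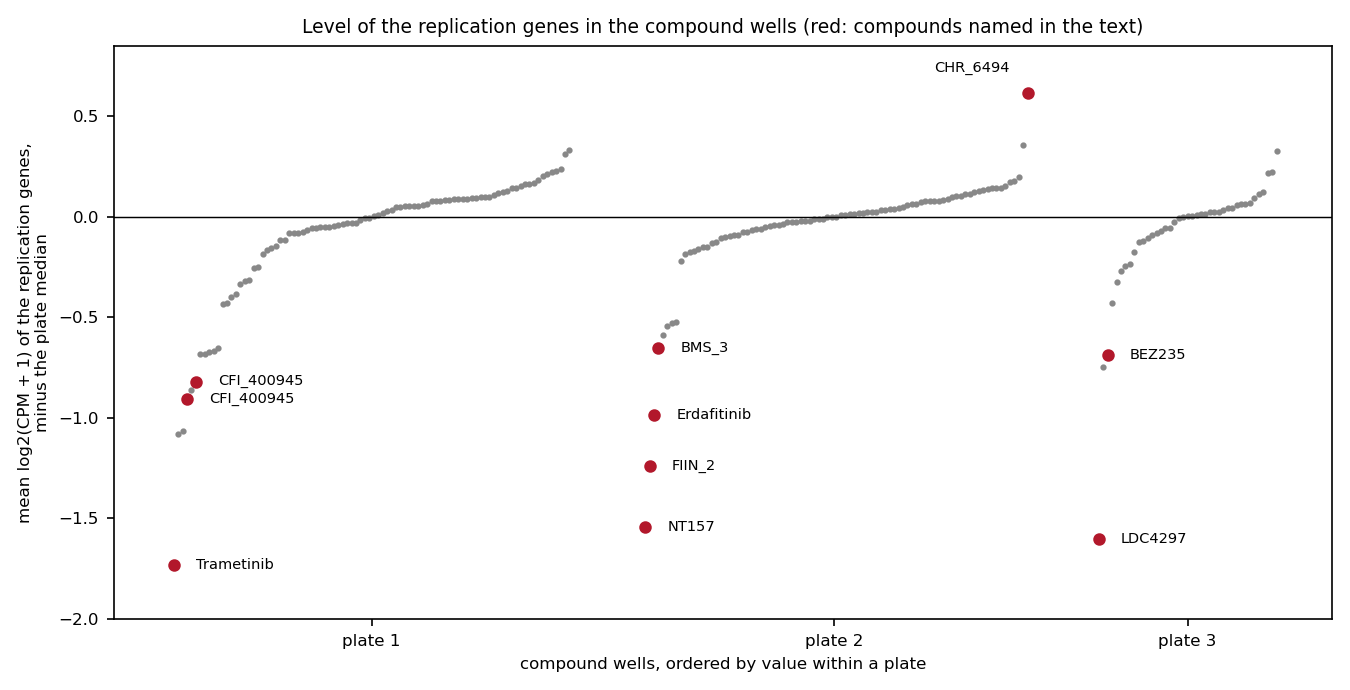
Mean log2(CPM + 1) of the 32 replication genes of the medium fit, minus the plate median (y axis). Each of 218 compound wells is a point, ordered by value within plates 1 to 3. Red points are the 9 compounds named for their called genes; CFI_400945 has 2 wells. Most wells lie near 0, with Trametinib at -1.73 and LDC4297 at -1.60.

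LDC4297, an inhibitor of the transcription and cell cycle kinase CDK7, had the most calls. Of 36 replication genes tested, 23 fell (10.3% of all genes tested fell) and 0 rose (9.35% of all genes rose). The well held 500691 counts, 117% of its plate's median. Intervals on single wells here and below cover counting error only, since whether molecular identifiers were used is not given. In 22 of the 23 genes it was below every one of the 45 other wells. Dut stood at 41.9 CPM (21 counts; 95% Wilson interval 27.4 to 64.1), against a lowest, median and highest of 123, 218 and 319 CPM in the other wells. Its log2 fold change was -2.54 ± 0.39 (SE; edgeR adjusted p = 8.83e-06). Rrm2 stood at 24.0 CPM (13.7 to 41.9), against 39.4, 142 and 260.4 CPM (-2.71 ± 0.53, adjusted p = 0.000249). Both nucleotide genes lay below the whole range of the plate, as did thymidine kinase Tk1 (11.98 CPM, against 25.2, 89.1 and 131 CPM; -2.97 ± 0.63).

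Among licensing genes LDC4297 lowered Mcm6 to 18.0 CPM (9 counts; 9.46 to 34.2), against 22.03, 102 and 136 CPM in the other wells (-2.61 ± 0.55, edgeR adjusted p = 0.000539). Mcm2, Mcm3, Mcm5, Mcm7 and Cdt1 also fell, by log2 fold changes of -1.27 to -2.01. E2f1 stood at 55.9 CPM, against 75.5, 162 and 212 CPM (-1.65 ± 0.37, adjusted p = 0.00103). At the fork, Pola1, the catalytic subunit of the primer-making polymerase, had 0 counts and was at least 3.76-fold lower, with the well set at 3 counts. Prim1, the primase, also had 0 counts and was at least 2.53-fold lower. Pole, a leading strand polymerase, had 1 count, a ratio of 0.112 to the other wells (95% interval 0.00283 to 0.629). Pcna, Rpa1 and Tyms were not called. Of 21 G2/M genes, 16 fell in this well.

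NT157, an inhibitor of insulin and insulin-like growth factor signalling through IRS proteins, had 519263 counts. Of 37 replication genes tested, 19 fell (13.1% of all genes fell) and 1 rose (15.1% of all genes rose). Rrm1 stood at 27.0 CPM (14 counts; 95% Wilson interval 16.1 to 45.3), against 65.3, 173 and 241 CPM in the 86 other wells (-2.58 ± 0.46, edgeR adjusted p = 5.44e-06). Mcm7 stood at 38.5 CPM (24.9 to 59.5), against 83.0, 171 and 321 CPM (-2.05 ± 0.43, adjusted p = 9.55e-05). Both were below every other well of the plate. Tk1 had 2 counts, a ratio of 0.0568 to the other wells (95% interval 0.00687 to 0.205).

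The 1 gene that rose with NT157 was Pcna, at 69.3 CPM (36 counts; 50.1 to 96.0), against 7.20, 37.8 and 74.8 CPM in the other wells (0.91 ± 0.35, edgeR adjusted p = 0.0434). Only 1 other well of the plate was higher. Dut and Cdt1 were not called. Of 24 G2/M genes, 19 fell with NT157.

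Both FGF receptor inhibitors on plate 2 that had calls lowered licensing, nucleotide and regulator genes. With the irreversible inhibitor FIIN_2, 18 of 37 tested genes fell (4.59% of all genes fell) and 0 rose (5.22% of all genes rose), in a well of 347047 counts, 57.2% of the plate median. With Erdafitinib, in a well of 725411 counts, 14 fell (4.72% of all genes fell) and 0 rose (6.96% of all genes rose). Cdt1 had 2 counts with FIIN_2, a ratio of 0.106 to the other wells (95% interval 0.0128 to 0.382). With Erdafitinib Cdt1 stood at 15.2 CPM (11 counts; 95% Wilson interval 8.47 to 27.2), against 5.76, 52.5 and 103 CPM in the other wells (-1.98 ± 0.48, edgeR adjusted p = 0.00248). These were the lowest and next lowest Cdt1 values of the plate.

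E2f1 stood at 77.8 CPM with FIIN_2 (53.5 to 113; -1.36 ± 0.42, edgeR adjusted p = 0.0268) and at 48.2 CPM with Erdafitinib (34.7 to 67.1; -1.94 ± 0.39, adjusted p = 0.000166), against a median of 168 CPM in the other wells. The Erdafitinib well was the lowest of the plate for E2f1. Dut stood at 49.0 CPM with FIIN_2 (30.6 to 78.5; -2.27 ± 0.43, adjusted p = 0.00017) and at 62.0 CPM with Erdafitinib (46.4 to 83.0; -1.83 ± 0.38, adjusted p = 0.000303), against a median of 203 CPM. Ccne1, the cyclin that drives entry into S phase, stood at 14.4 CPM with FIIN_2 and 9.65 CPM with Erdafitinib, against a median of 64.3 CPM. In contrast to LDC4297 and NT157, few G2/M genes were called: 0 of 24 fell with FIIN_2 and 1 of 24 with Erdafitinib, with medians of -1.01 and -0.61 over the list, and the difference between the compounds was not tested.

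As a class of 3 compounds, the FGF receptor inhibitors had 11 of 36 replication genes lower than in the 84 other wells (5.41% of all genes fell) and 0 higher (8.51% of all genes rose), with a median log2 fold change of -0.57. Cdt1 led (-1.16 ± 0.25, edgeR adjusted p = 0.000411), followed by Mcm3 (-1.11 ± 0.29). The third compound, SU_5402, had no replication gene called by edgeR or limma (0% of all genes rose and 0% fell by edgeR), and 0 past an unadjusted p of 0.05. It stood at 47.5 CPM for Cdt1, 164 CPM for E2f1 and 243 CPM for Dut, inside the range of the other wells. The class had 22 genes called without SU_5402 and 0 without Erdafitinib or without FIIN_2.

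Trametinib, an inhibitor of the kinase MEK downstream of RAS and RAF, lowered 12 of 32 replication genes tested (5.84% of all genes fell) and raised 0 (7.37% of all genes rose), in a well of 249434 counts. Mcm7 stood at 28.1 CPM (7 counts; 95% Wilson interval 13.6 to 57.9), against 80.5, 165 and 274 CPM in the 89 other wells (-2.72 ± 0.56, edgeR adjusted p = 0.000201). Mcm2 stood at 16.04 CPM (4 counts; 6.24 to 41.2), against 22.02, 89.8 and 195 CPM (-2.65 ± 0.61, adjusted p = 0.0011). E2f1 stood at 44.1 CPM (24.6 to 78.97), against 57.9, 163 and 247 CPM (-2.04 ± 0.49, adjusted p = 0.00202). For each of these genes the Trametinib well was the lowest of the plate. Mcm3 had 0 counts and was at least 2.78-fold lower, and Chaf1b had 1 count, a ratio of 0.0682 (95% interval 0.00173 to 0.381).

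As a class, the 3 MEK inhibitors had 12 of 30 replication genes lower than the 87 other wells (10.4% of all genes fell) and 0 higher (12% of all genes rose), with a median log2 fold change of -0.95. All 6 licensing genes tested were among the 12. Mcm3 had 6.03 CPM with GDC_0623 and 0 CPM with Trametinib and with Ro_5126766, against a lowest, median and highest of 0, 33.6 and 93.1 CPM (-3.38 ± 0.70, edgeR adjusted p = 9.9e-05). Cdt1 had 21.1, 8.02 and 0 CPM in the same order, against 7.35, 52.5 and 101 CPM (-1.996 ± 0.442, adjusted p = 0.000294). The Ro_5126766 well held 45416 counts, so that 1 count there is worth 22.02 CPM. Without that compound 13 genes were called, and without Trametinib 3. GDC_0623 alone had 0 genes called by edgeR or limma, and 8 lower past an unadjusted p of 0.05 (3.6% of all genes rose and 1.05% fell). Ro_5126766 alone had 0 called by edgeR (0.0791% of all genes rose and 0.105% fell), with 3 lower and 1 higher past an unadjusted p of 0.05, 8 lower and 1 higher by limma, and a median of -0.03.

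CFI_400945, an inhibitor of the centriole duplication kinase PLK4, was present in 2 wells, as the free base and as the fumarate. Of 32 replication genes 4 fell (0.29% of all genes fell) and 0 rose (0.501% of all genes rose). Tyms, thymidylate synthase, stood at 43.5 CPM in the free base well and 29.0 CPM in the fumarate well, against 43.7, 102 and 182 CPM in the 88 other wells (-1.50 ± 0.37, edgeR adjusted p = 0.0275). Rrm2 stood at 28.3 CPM and 21.1 CPM in those wells, against 25.7, 77.2 and 137 CPM (-1.63 ± 0.43, adjusted p = 0.0409). Mcm5 (-1.38 ± 0.37) and Uhrf1 (-2.40 ± 0.64) also fell.

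Together with Centrinone and Centrinone_B, the PLK4 class had 11 of 29 replication genes lower (1.78% of all genes fell) and 0 higher (1.8% of all genes rose), with a median of -0.73. Nucleotide supply genes held 4 of the 11, out of 5 tested. Tyms had 72.6 CPM with Centrinone and 44.4 CPM with Centrinone_B (class -1.19 ± 0.24, edgeR adjusted p = 0.00186). Uhrf1 had 4.35, 5.26, 8.71 and 12.3 CPM in the 4 wells, against a median of 26.4 CPM (-1.82 ± 0.41, adjusted p = 0.00364). E2f1 was not called in this class and stood at 159, 137, 142 and 163 CPM. Of 16 G2/M genes 8 fell. Centrinone had 1 and Centrinone_B 4 replication genes lower past an unadjusted p of 0.05 and 0 called by edgeR or limma. With either compound 0% of all genes rose and 0% fell by edgeR. The class had 0 called without CFI_400945 and 7 without Centrinone_B.

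Inhibitors of PLK1, the main mitotic polo-like kinase, and of its polo-box domain had 3 of 31 replication genes lower (2.29% of all genes fell) and 0 higher (2.17% of all genes rose): Ccne1 (-1.06 ± 0.31), Tyms (-0.71 ± 0.21) and Rrm1 (-0.69 ± 0.21). None of the 3 was called without Rigosertib, TAK_960 or NMS_1286937, 1 gene was called without GW843682X, and 7 without Poloxin. Rigosertib on its own lowered Tyms to 18.4 CPM (7 counts; 95% Wilson interval 8.91 to 37.97), against 56.4, 95.6 and 135 CPM in the 45 other wells of plate 3 (-2.53 ± 0.41, edgeR adjusted p = 0.000901), below every other well.

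BMS_3, an inhibitor of LIM kinases, lowered 4 of 37 genes (0.954% of all genes fell) and raised 0 (1.36% of all genes rose). Ccne1 stood at 15.2 CPM (10 counts; 95% Wilson interval 8.25 to 28.0), against 7.70, 64.3 and 112 CPM in the other wells (-2.22 ± 0.64, edgeR adjusted p = 0.0424), and Rrm1, Tyms and Dut also fell. In none of the 4 genes was it the lowest well of the plate, and limma called 0 of them. As a class of 3 compounds, LIM kinase inhibitors had 0 of 36 genes called by edgeR (0.0242% of all genes), with 2 past an unadjusted p of 0.05 (736 of all 8275 genes). Of 24 G2/M genes 7 fell with BMS_3. The mean level of the class wells, minus the plate median, was -0.66 with BMS_3, 0.14 with BMS_5 and 0 with T56_LIMKi. BMS_5 had 0 of 37 replication genes called by edgeR or limma (0% of all genes rose and 0% fell by edgeR), with a median of 0.14. For Rrm1 BMS_5 stood at 241 CPM, the highest compound well of the plate.

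The PI3K and mTOR inhibitor BEZ235 raised the sliding clamp gene and lowered a helicase and a single-strand binding gene. Of 36 genes tested 2 fell (4.83% of all genes fell) and 1 rose (6.7% of all genes rose). These shares were near or below those of all genes. Pcna stood at 110.1 CPM (35 counts; 95% Wilson interval 79.2 to 153), against 16.8, 39.2 and 77.9 CPM in the 45 other wells (1.42 ± 0.38, edgeR adjusted p = 0.00969), above them all. Rpa2 had 0 counts and was at least 3.62-fold lower, and Mcm6 stood at 22.03 CPM, against 18.0, 102 and 136 CPM (-2.06 ± 0.64, adjusted p = 0.0275).

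Over the 6 wells of the mTOR class, Pcna had a lowest, median and highest of 54.3, 78.8 and 110.1 CPM, against 0, 39.5 and 116 CPM in 217 other wells (0.86 ± 0.16, edgeR adjusted p = 1.2e-05). Every mTOR inhibitor well was above the median of the others. Mcm2 also rose (0.52 ± 0.14) and Ccne1 fell (-0.90 ± 0.26). So 2 of 35 genes rose (10.6% of all genes rose) and 1 fell (9.59% of all genes fell). Both shares were below those of all genes. Without PF_04979064, 5 genes were called. Outside this class, Pcna rose with NT157 and with MCB_613, and it fell with 0 compounds.

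CHR_6494, an inhibitor of the mitotic histone kinase haspin, raised 6 of 37 replication genes (0.445% of all genes rose) and lowered 0 (0.424% of all genes fell). Mcm10 stood at 33.3 CPM (19 counts; 95% Wilson interval 21.3 to 52.0), against 0, 6.43 and 17.1 CPM in the 86 other wells (2.32 ± 0.53, edgeR adjusted p = 0.013). Mcm5 stood at 231 CPM (195 to 274), against 21.2, 102 and 140.03 CPM (1.26 ± 0.32, adjusted p = 0.0239). Rfc4 stood at 78.9 CPM, against 5.30, 25.3 and 44.3 CPM (1.64 ± 0.36, adjusted p = 0.00927). In each of the 6 genes, which also held Rpa2, Pold1 and Prim1, the CHR_6494 well was above every other well of the plate. E2f1 and Ccne1 were not among them. limma called 0 of the 6.

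**Figure D4:**
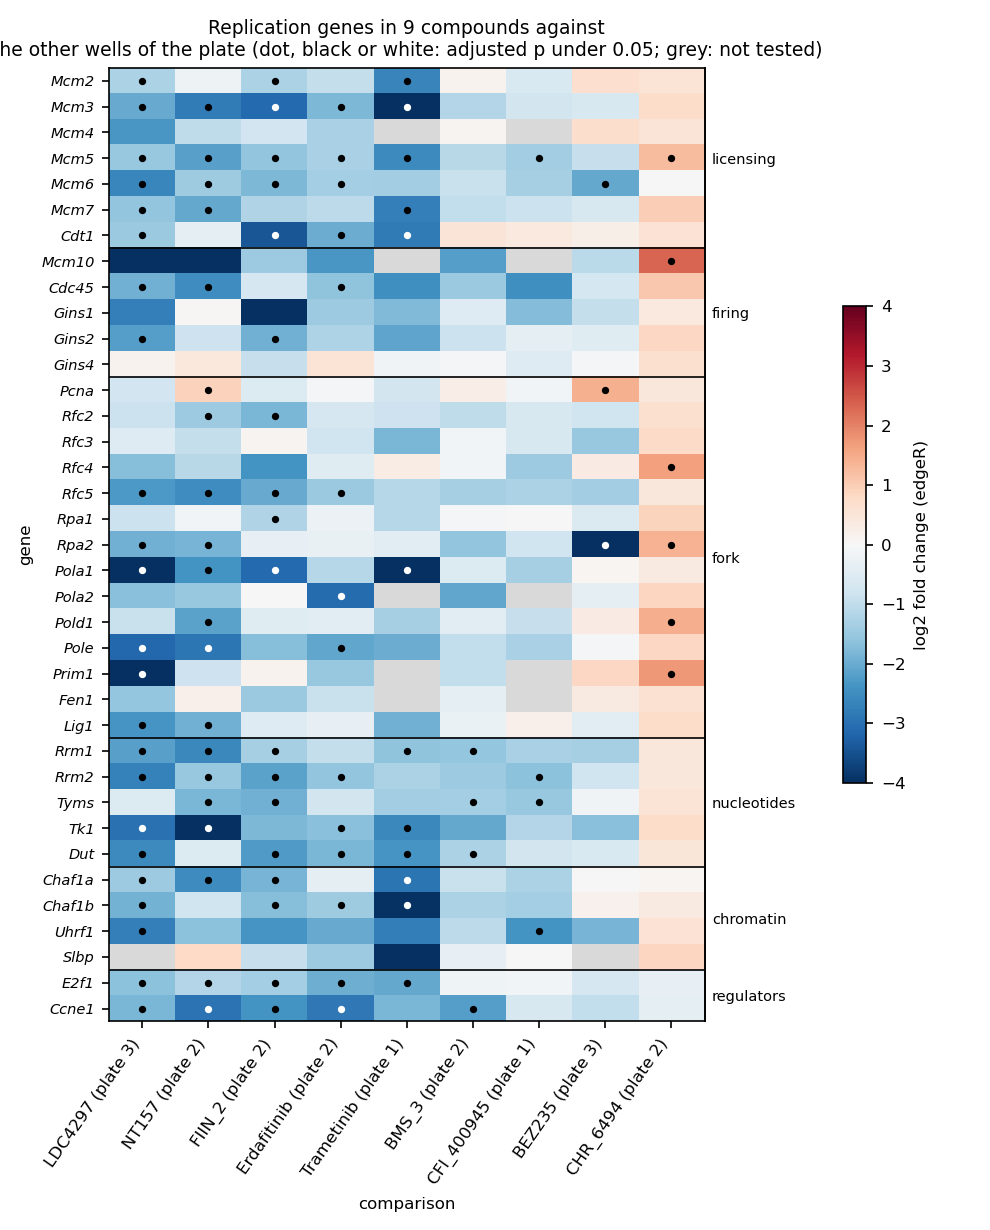
Log2 fold change from edgeR (colour, red higher and blue lower with the compound) of the replication genes, in rows grouped by role, for the 9 named compounds against the other wells of their plate, in columns. Dots mark an adjusted p under 0.05 and grey cells were not tested; colours stop at a size of 4. LDC4297 has 23 dots and CHR_6494 has 6, all on red.

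Several classes had no replication gene called as a class. The CDK4/6 class (Palbociclib, ON123300 and 2 salts of LEE011) had 0 of 35 replication genes called by edgeR (0.0125% of all genes were called) or DESeq2. It had 0 past an unadjusted p of 0.05 (213 of all 7997 genes), with a median log2 fold change of -0.01. The CDK1/2/7/9 class of 7 compounds had 0 of 36 called by edgeR (1.38% of all genes) or DESeq2, and 2 past an unadjusted p of 0.05 (1096 of all 7696 genes). On plate 3 alone, where the class is LDC4297 and THZ1, 21 of 35 fell (15.7% of all genes fell) and 0 rose (16.4% of all genes rose). THZ1, also a CDK7 inhibitor, had 0 of 36 called by itself by edgeR or limma (0.603% of all genes rose and 0.518% fell), with 3 lower and 1 higher past an unadjusted p of 0.05 and a median of -0.50. HLM006474, described as an E2F inhibitor, had 0 of 36 called by edgeR or limma, 0 past an unadjusted p of 0.05 and a median of -0.01. In that well 0% of all genes rose and 0% fell by edgeR, so its 0 is not particular to replication genes. The compounds named for the kinase of the Mediator complex, CDK8 (Senexin_A and MSC2530818), had 0 replication genes called by edgeR or limma, with medians of -0.14 and -0.03. With Senexin_A 1 was lower and 1 higher past an unadjusted p of 0.05 and 0% of all genes were called, and with MSC2530818 1 was higher past it, where 0.329% of all genes rose and 0.0106% fell. PI3K/AKT and EGFR inhibitors had 0 called by edgeR or DESeq2 (0% of all genes in each), with 5 and 1 past an unadjusted p of 0.05. Over all genes 524 of 6822 and 219 of 6982 passed it. RAF inhibitors had 0 called by both tools (2.49% of all genes), with 2 past an unadjusted p of 0.05 (817 of all 7028 genes). Of 34 genes tested in the RAF class, 28 had a negative and 6 a positive log2 fold change (median -0.21). Such a split was not particular to it: CDK1/2/7/9 inhibitors had 28 negative and 8 positive, and checkpoint and CDC7 inhibitors 28 and 7. Other classes leaned the other way, with 6 negative and 26 positive for PI3K/AKT and 7 and 29 for BTK/SYK inhibitors. The mean level of the RAF inhibitor wells, minus the plate median, was -0.43 with CCT196969, -0.43 with LY3009120, -0.03 with Dabrafenib and 0.08 with BRAF_inhibitor. CCT196969 by itself had Cdt1 called lower. In edgeR, 0 were called with VEGF and PDGF receptor inhibitors (4.1% of all genes) and with ALK inhibitors (0.0148% of all genes), with 1 and 0 past an unadjusted p of 0.05. Over all genes 1434 of 6748 and 186 of 6742 passed it. Checkpoint and CDC7 kinase inhibitors had 0 of 35 called by edgeR or DESeq2 (0% of all genes), and 0 past an unadjusted p of 0.05 (235 of all 7997 genes). In that class CCT245737, by itself, had 0 of 37 called by edgeR or limma (0.763% of all genes rose and 0.191% fell), but 15 were lower past an unadjusted p of 0.05, with a median of -0.75. The AXL class of 3 compounds had 0 of 35 called by edgeR (0.339% of all genes), yet 17 passed an unadjusted p of 0.05 (1127 of all 7660 genes did). Of the 35, 34 had a negative and 1 a positive log2 fold change, with a median of -0.61. The mean level of its wells, minus the plate median, was -0.68 with SGI_7079, -0.55 with Bemcentinib and -0.52 with UNC2025. In simulated data a 1-well test on plate 2 recovered 9% of 2-fold and 68% of 4-fold changes, so a 2-fold change in 1 well was mostly not detectable.

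Gene by gene over the 211 single-compound tests, Mcm5 was lower with 6 compounds (CFI_400945, Trametinib, Erdafitinib, FIIN_2, NT157 and LDC4297) and higher with CHR_6494. Cdt1, Mcm3, Mcm6, Dut, Rrm1, Rrm2, Tyms, E2f1 and Ccne1 were each lower with 5 compounds. Pola1, Rfc5, Chaf1a, Chaf1b, Tk1 and Mcm2 were each lower with 4. Gins1, Gins4 and Rfc3 were tested in all 211 and called in 0, and Mcm4, Fen1 and Slbp were tested on 2 of the plates and called in 0. Cdc6, Orc1, Orc6 and Ccne2 were tested with 0 compounds because of low counts. Exons of 16 of the 41 genes overlap another gene in the annotation, among them Mcm7, Tk1, Rfc5, Rfc4 and Lig1, and since the use of strand in counting is not given, reads of such neighbours cannot be told apart.

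**Figure D5:**
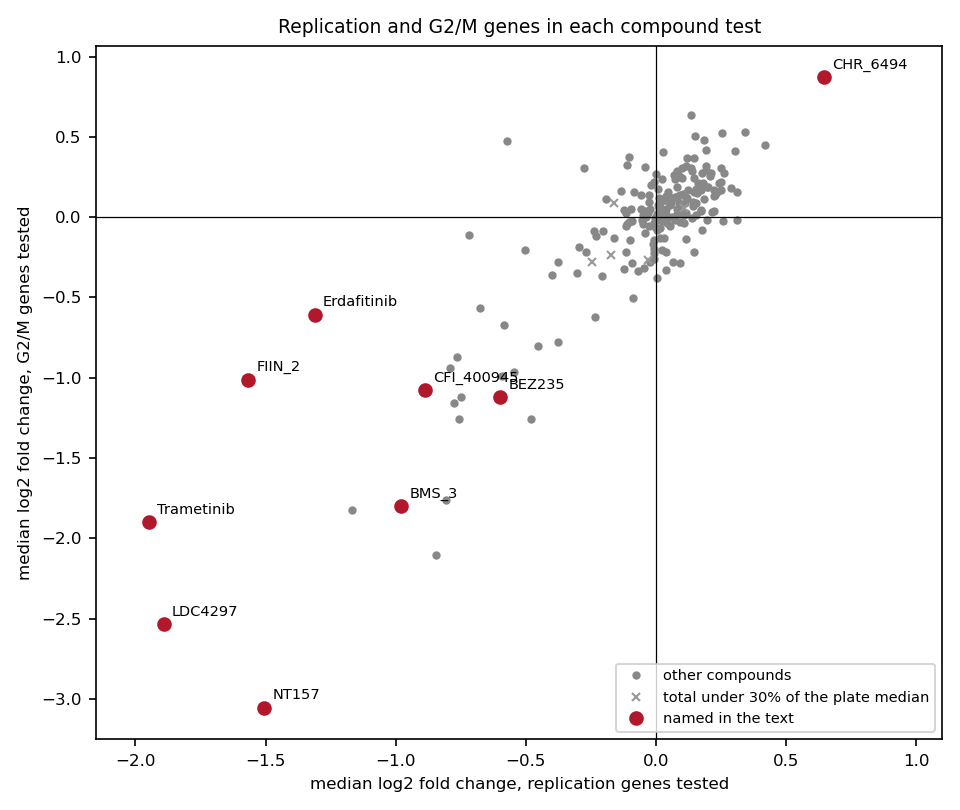
Median log2 fold change over the tested replication genes (x axis) and over the tested G2/M genes (y axis) for each of 211 compound tests against the other wells of the plate. Red points are the 9 named compounds: NT157 and LDC4297 lie lower on the G2/M axis (-3.05 and -2.53) than on the replication axis (-1.50 and -1.89), and FIIN_2 and Erdafitinib lie the other way.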

How the data were processed

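Counts per gene and well, made by the authors, were deposited as 1 table of 20471 genes and 274 columns over 3 plates. Per the submitters' processing notes STAR and mm10 were used; neither the counting tool nor its use of strand or molecular identifiers is stated there. Columns were matched to plates by compound or medium name. Of these, 16 columns were not used and 4 identical to another were counted once. Of 222 compound wells, 4 with totals below 10% of the plate median were left out, which leaves 218. CPM is the count over the well's total. The score is the mean log2(CPM + 1) over the 32 replication genes tested in the medium fit, in the wells of all plates.

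Tests used edgeR 4.0.16 (quasi-likelihood, TMM, filterByExpr with a minimum count of 10) in R 4.3.3, with Benjamini-Hochberg adjustment over all genes tested. DESeq2 1.42.0, limma 3.58.1, other scaling, filters, p adjustments, wells and compounds were alternatives. Media were fitted together, compounds against all other screening wells of the plate, and target classes with a plate term. In a medium comparison every called replication gene is named. The compounds named are the 8 with most replication genes called lower and up to 8 with most called higher, at least 2 each; compounds with 1 called gene, or with none, were named after their values were seen. On simulated data the test of bC8FAE over MEF, with those wells fitted alone, recovered 75.5% of 2-fold changes among 5188 genes. In this and the 1-well simulation, changes were set only in genes with a mean of at least 10 counts per well. Recovery for genes below that level was not assessed. Wells of the same number in their names showed no common deviation (median correlation 0.0079 over 94 pairs). Whether they shared a culture or handling is not stated in the labels. The genes, lists and classes were chosen with earlier results of these data known.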

Additional observations from a re-analysis of the deposited data

Results flagged for a closer look

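Each result here is a sample far from the others of its group. Of 177 groups examined, 15 had such a sample, and chance gives about 1 in 20 groups. In MEF 3, one of the shallowest wells, Pole stood at 43.2 CPM (6 counts), above the next well at 15.7 CPM. In bC8FAE 4, the shallowest medium well, Rfc4 stood at 50.3 CPM (6 counts), above 27.7 CPM. In bC8FAE 2, Pold1 stood at 45.6 CPM (next 22.8 CPM) and Ccne1 at 215 CPM (next 148 CPM). Among bC6FAE[10] wells, Pold1 was low in well 3 at 18.6 CPM (next 34.8 CPM) and E2f1 high in well 4 at 165 CPM (next 123 CPM).

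Among bCLFAE wells, Mcm7 was high in well 3 at 196 CPM (next 166 CPM), Chaf1b high in well 1 at 73.6 CPM (next 60.3 CPM) and Rfc5 low in well 4 at 44.1 CPM (next 75.6 CPM). Among bCSFAE wells, Rfc3 was high in well 2 at 51.2 CPM (next 39.5 CPM). In well 3 of that medium Pole stood at 29.4 CPM (next 12.8 CPM) and Tyms at 106 CPM (next 86.3 CPM).

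For the score minus the plate median, LDC4297 stood at -1.60 among CDK1/2/7/9 inhibitors (next -0.18), CCT245737 at -0.59 among checkpoint and CDC7 inhibitors (next 0.01) and Lck_Inhibitor at -0.65 among SRC and ABL inhibitors (next -0.18). A signal was also seen in wells named nocell, which no comparison used: nocell 3 held 21 counts of replication genes among 25308 counts, and nocell 2 held 2 among 4280 counts.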

How the results depend on the processing

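No result reversed under any alternative run. Of the values for single genes and compounds, 471 kept their side of the threshold, 156 no longer passed it and 16 counts moved. Counts of called replication genes moved as follows. With all wells of plate 3 in the fit, bCFAE over basal had 6 (10 as reported), and bC6FAE[2] over bCFAE, bC6FAE[10] over bCFAE and bC8FAE over bC6FAE[10] had 0 each. For bC6FAE[2] over bCFAE, 1 was called with no filter and 1 with DESeq2, against 4 as reported. Leaving out 1 well gave 8 to 10 for bCFAE over basal, 7 to 10 for bC8FAE over MEF, 0 to 1 for bC8FAE over bCFAE (1 without bC8FAE 3 or bCFAE 3), 0 to 3 for bC6FAE[2] over bCFAE, 2 to 3 for bC6FAE[10] over bCFAE and 1 to 2 for bC8FAE over bC6FAE[10].

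With p adjusted over all compounds of a plate, 5 compounds had at least 2 genes lower, against 8 as reported: LDC4297 had 10, NT157 8, FIIN_2 4, Erdafitinib 4 and Trametinib 2. At least 2 genes higher were found with 0 compounds by limma and 2 under a filter over all wells, an alternative chosen after seeing the data, against 1 as reported. CDK1/2/7/9 inhibitors had 21 on plate 3 alone and PLK1 inhibitors 0 on plate 1 alone. mTOR inhibitors had 1 on plate 1 alone, 0 on plate 2 alone and 6 with DESeq2, and FGF receptor inhibitors had 7 with no filter. Leaving out 1 compound gave 3 to 13 for MEK, 0 to 22 for FGF receptor, 0 to 10 for PLK4, 0 to 7 for PLK1 and 3 to 5 for mTOR inhibitors. The cause of these moves was not tested.

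The replicate block, added after seeing the data, gave 10 called genes for bCFAE over basal and 8 for bC8FAE over MEF; it moved no count of calls by over 1.5 times. Gins4 (adjusted p = 0.0696) and Rfc5 (0.0725) in bC8FAE over MEF and Rpa2 (0.0526) in bC6FAE[10] over bCFAE were not called with it, and it ended no other call of a named gene. At this depth a 2-fold change in 1 compound well was mostly not detectable.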
